A study of Mus musculus with 24 samples.

Results

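Transcript levels in bone marrow macrophages after 2 h of lipopolysaccharide (LPS) were compared with those after 1 h. The comparison used 6 of the 24 arrays of the study: the 3 titled as control cells at 2 h against the 3 titled as control cells at 1 h, matched by replicate number. The cells were cultured macrophages from the bone marrow of female C57BL/6 mice aged 6 weeks, and no allele or transgene is named for any group. Groups used beside the comparison were inhibitor-treated cells at 2 h and at 1 h of LPS, which received a bromodomain inhibitor, and control cells at 0 h and 4 h, with 3 arrays each. The design text calls the replicates biological. The labels do not say how many mice gave each culture, how much LPS was used, which inhibitor it was or whether control cells had a vehicle.

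LPS, a component of the outer membrane of Gram-negative bacteria, is sensed by Tlr4, which signals through the adaptors Myd88 and Ticam1 to NF-kB, MAP kinases and Irf3. Primary response genes are switched on by factors already present in the cell, and many encode short-lived transcription factors, phosphatases and mRNA decay proteins that end their own induction. Secondary response genes need new protein: interferon beta made after LPS acts back on the cell through Ifnar1 and Ifnar2, Jak kinases, Stat2 and Irf9, and the activated factors bind the interferon-stimulated response element (ISRE) of antiviral genes.

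Levels are log2 intensities and changes are log2 differences of 2 h minus 1 h with their standard error (3 arrays against 3). Values of single arrays are listed in the order of replicates 1, 2 and 3. A floor of 6.46 log2 units, set from olfactory and vomeronasal receptor probes, marks levels that cannot be told from background, and the brightest value in the data is 15.17. Of 13 macrophage markers listed, 10 were on the arrays and all 10 were measured. Lyz2 had a mean of 14.87 at 2 h and 14.88 at 1 h, and Adgre1 one of 12.88 at 2 h and 12.91 at 1 h. Of the 10, Cd14 was called with a rise of 0.48 and Fcgr1 with a fall of 0.39, and 8 were not called. Markers of other cell types were tested only if above the floor on all 3 arrays of some group. This kept 1 of 9 T cell markers on the arrays, 1 of 8 B cell, 2 of 6 NK cell and 2 of 9 neutrophil markers. It also kept 2 of 7 erythroid and megakaryocyte, 3 of 7 mast cell and basophil, 2 of 9 stromal and 1 of 7 endothelial markers. Dendritic cell markers kept were 0 of 9. Of the 14 tested, 13 had an array above the floor at 2 h or 1 h. Among them were the mast cell protease gene Cpa3 (10.97 at 2 h, 10.94 at 1 h) and the platelet chemokine gene Pf4 (12.92 at 2 h, 13.01 at 1 h). The T cell gene Cd28, 1 of the 14, was called, and it fell by 0.31. In bulk RNA a change in the number of cells of a type and a change in RNA per cell cannot be told apart. Replicate 1 stood furthest from its group mean, with a root mean square deviation over probes of 0.243 log2 units at 2 h and 0.225 at 1 h, against 0.135 to 0.174 for replicates 2 and 3, so leading counts are also given without it.

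From 1 h to 2 h, 1899 of 8201 genes (23.2%) passed limma's test at an adjusted p under 0.05: 835 rose (10.2%) and 1064 fell (13%). Large changes were more often rises: 182 rises and 75 falls were of at least 2-fold, and 35 rises and 19 falls of at least 4-fold. All 3 replicate pairs moved the same way for 824 of the 835 rises and 1053 of the 1064 falls. The fit that made the calls was paired by replicate, so this agreement follows largely from the calls and is no separate support. Of the 35 rises of at least 4-fold, 17 were on lists of interferon-stimulated antiviral genes or interferon-induced GTPases, which hold 43 and 12 of the 8201 genes. These and all other lists were chosen with earlier results of these data known. Their counts describe the lists and are no independent support. Without replicate 1, 1472 genes were called, 685 higher and 787 lower. Without replicate 2 the count was 1155 and without replicate 3 it was 935. The fit without replicate pairing called 1081 genes, and leaving out the 2 h array of replicate 1 called 1213. All these refits called fewer genes than the main fit. List counts from refits, given below, are therefore not set against the shares of the main fit. Centring arrays on 9 housekeeping genes raised the median of all genes by 0.164 and turned the share of rises among the calls to 80.3%, against 44% in the deposited scaling and 53.1% after cyclic loess, so small falls depend on the scaling.

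**Figure D1:**
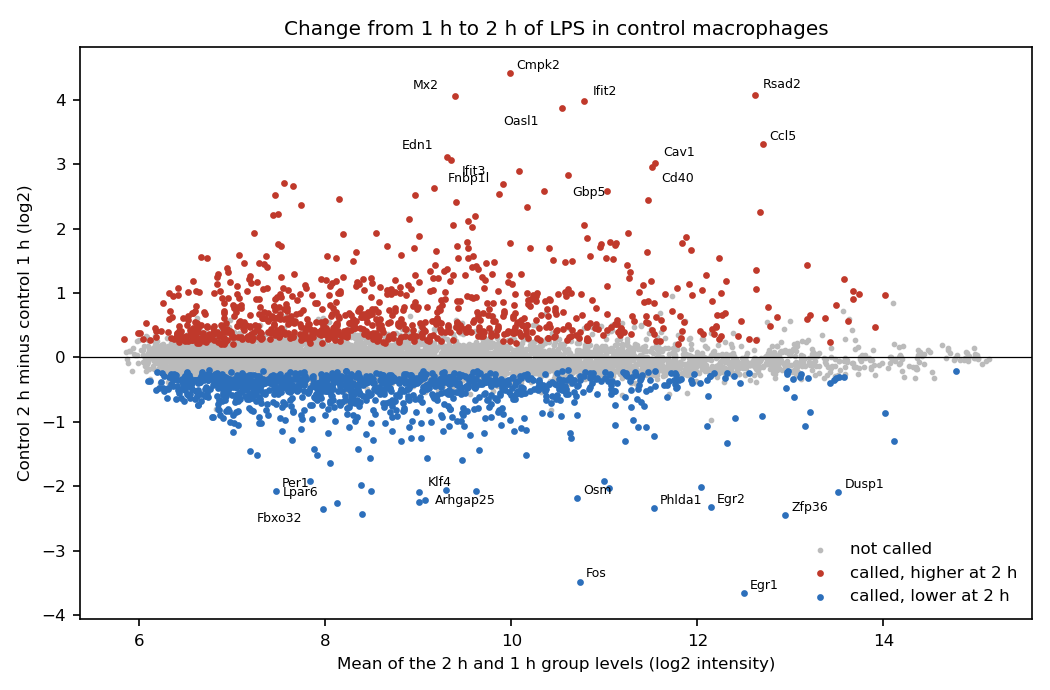
Each of the 8201 genes is a point: the horizontal axis is the mean of its 2 h and 1 h levels (log2 intensity) and the vertical axis its change, control 2 h minus control 1 h (log2). Red points are the 835 called rises, blue points the 1064 called falls and grey points genes not called; the 12 largest rises and falls with separated arrays are named, and 35 rises but 19 falls are of at least 4-fold.

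Interferon-stimulated antiviral genes led the rises. Of the 43 measured, 33 rose and 0 fell, where 10.2% of all genes rose, and their median change was 1.11 against -0.04 over all genes. Cmpk2, a mitochondrial nucleotide kinase gene induced by interferon, stood at 13.25, 11.63 and 11.70 at 2 h, against 8.61, 7.37 and 7.35 at 1 h. The 3 arrays at 2 h lay far above the 3 at 1 h, and replicate 1 was the highest at both times. The change was 4.42 ± 0.42, or 21.3-fold (adjusted p = 2.75e-07). Rsad2 (viperin), which makes a chain-terminating nucleotide, stood at 15.07, 14.52 and 14.38 at 2 h, against 12.56, 9.47 and 9.70 at 1 h. At 1 h the array of replicate 1 was well above the other 2, and at 2 h all 3 lay within 1 log2 unit near the top of the scale. Rsad2 rose by 4.08 ± 0.57 (adjusted p = 2.87e-05).

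Mx2, a dynamin-like GTPase that blocks viral replication, had levels of 12.06, 11.04 and 11.17 at 2 h, against 8.71, 6.47 and 6.89 at 1 h. It was near the floor in replicates 2 and 3 at 1 h and far above it on all arrays at 2 h, a rise of 4.06 ± 0.51 or 16.7-fold. Ifit2 encodes a protein that binds viral RNA, and its arrays read 13.57, 12.64 and 12.12 at 2 h, against 10.20, 8.24 and 7.92 at 1 h. The groups did not overlap, and the rise was 3.98 ± 0.43 (adjusted p = 1.23e-06). Oasl1, of the oligoadenylate synthetase family, stood at 13.18, 12.08 and 12.18 at 2 h, against 10.09, 7.51 and 8.21 at 1 h and rose by 3.87 ± 0.41. Ifit3, which pairs with other Ifit proteins, stood at 12.07, 10.64 and 9.95 at 2 h, against 8.88, 7.395 and 7.21 at 1 h. Here too every 2 h array exceeded every 1 h array, and the rise was 3.06 ± 0.35. The 12 largest rises and 12 largest falls were chosen among genes whose arrays did not overlap. Their separation, here and below, is therefore part of the choice and no further support. Other members of the list that rose were Ifih1, the cytosolic RNA sensor Mda5 (2.36 ± 0.18), Isg15, a ubiquitin-like modifier (2.58 ± 0.23), Usp18, the protease that removes it (2.34 ± 0.44), and Mx1 (2.52 ± 0.42). At 1 h Ifih1 and Mx1 were above the floor on 1 of 3 arrays each, so their rises may be understated, and these 4 genes were picked after their values were seen. The other 10 members did not pass the test, from Pml at -0.10 to Bst2 at 0.48. Without replicate 1 the list had 30 rises and 1 fall with a median of 0.87. Over the 19 alternatives, the 12 largest rises and the 12 largest falls named by the rule kept their direction and call wherever they were tested.

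**Figure D2:**
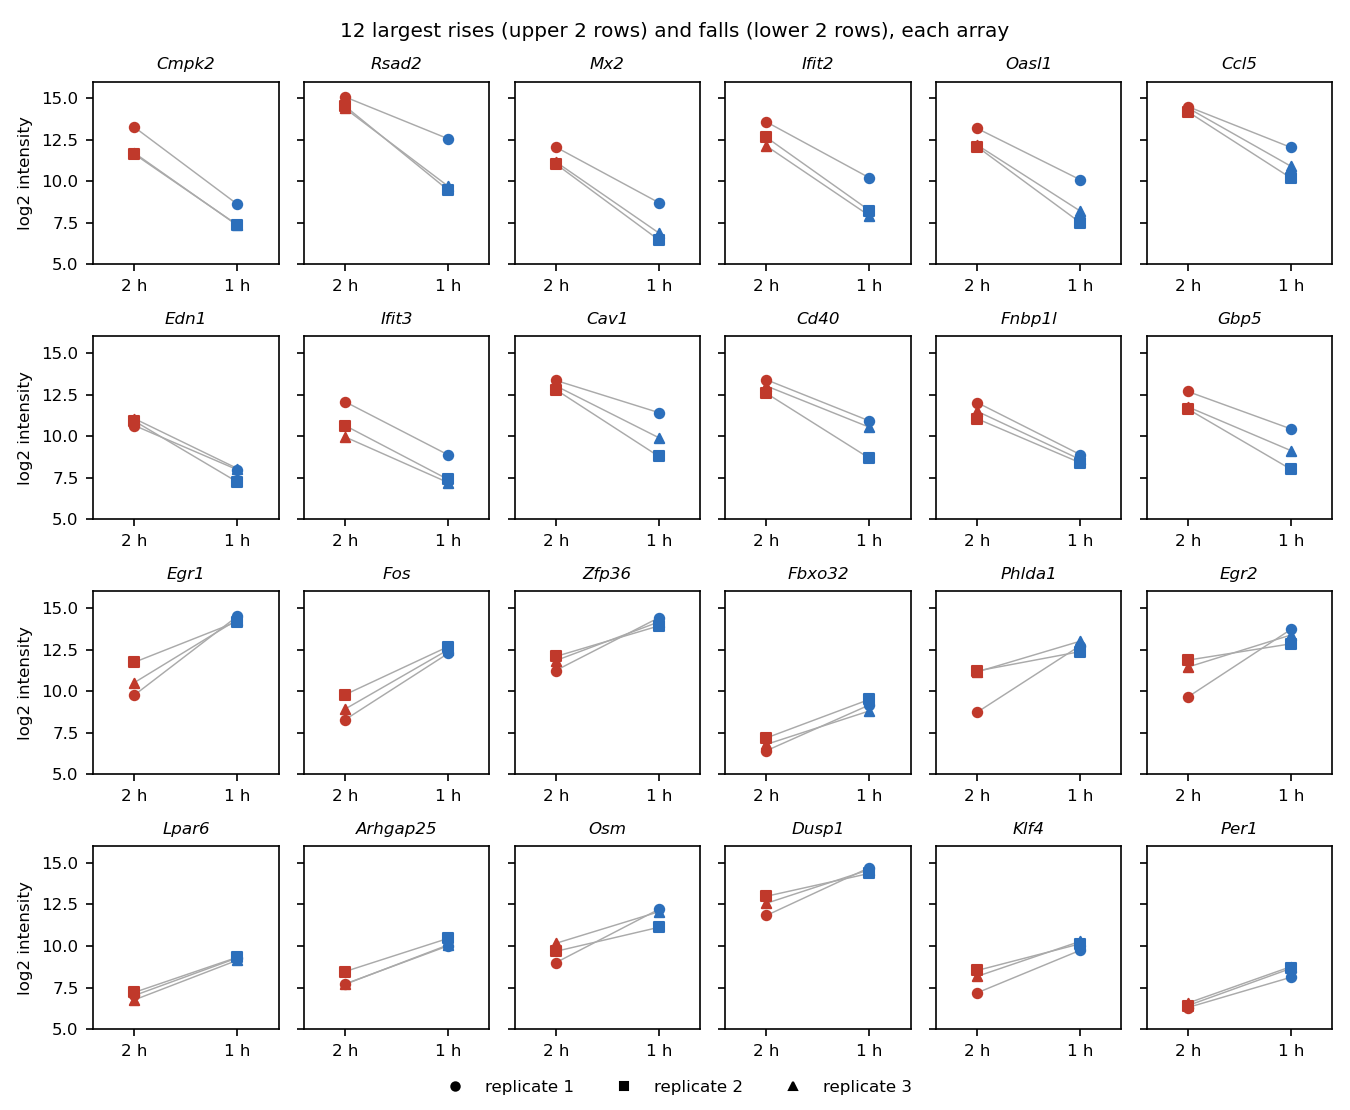
Each panel shows 1 gene, with its 3 control arrays at 2 h (red, left) and its 3 control arrays at 1 h (blue, right) on a log2 intensity axis from 5 to 16; grey lines join arrays of the same replicate number, marked by circles, squares and triangles. The upper 12 panels are the largest rises and the lower 12 the largest falls with arrays that do not overlap, from Cmpk2 at 4.42 to Per1 at -2.08.

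Promoter windows of genes with the largest rises held ISRE letters in a larger share than those of all tested genes. Windows were the 300 bases from 250 before to 50 after the annotated start, from RefSeq (GRCm38.p6), and the letters searched were GAAA, any 2 bases and GAAA again, on either strand, so that a match on the other strand starts and ends with TTTC. Of the 50 largest rises, 41 had a window and 14 of these (34.1%) held a match, against 2 of 41 (4.88%) for the 50 largest falls, 267 of 6245 tested genes (4.28%) and 1079 of all 27025 windows (3.99%). Matches stood in 15 of 32 antiviral genes (46.9%) and 8 of 9 interferon-induced GTPases (88.9%) with a window. A match is a run of letters, and binding was not measured. The same windows were also searched for the letters of NF-kB, AP-1 and TATA sites. Their counts are not given, so the motifs shown here and below are a selection. Windows of Isg15, Rsad2, Ifit3, Gbp5 and Cxcl10 are shown 5′ to 3′ on the strand of the gene, because these genes carry the rise; capitals mark the ISRE matches. Isg15 (chr4:156200769-156201068, minus strand) has 3 overlapping matches from positions -78 to -57 relative to the start. Rsad2 is at chr12:26456403-26456702 on the minus strand, Ifit3 at chr19:34583279-34583578 on the plus strand with 2 matches, Gbp5 at chr3:142496684-142496983 on the plus strand and Cxcl10 at chr5:92348840-92349139 on the minus strand.
Isg15: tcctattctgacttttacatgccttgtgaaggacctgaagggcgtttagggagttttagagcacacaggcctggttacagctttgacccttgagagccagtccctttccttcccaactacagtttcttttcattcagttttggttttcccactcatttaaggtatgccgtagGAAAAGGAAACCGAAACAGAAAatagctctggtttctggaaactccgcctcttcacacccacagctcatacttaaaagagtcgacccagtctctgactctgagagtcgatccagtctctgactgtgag
Rsad2: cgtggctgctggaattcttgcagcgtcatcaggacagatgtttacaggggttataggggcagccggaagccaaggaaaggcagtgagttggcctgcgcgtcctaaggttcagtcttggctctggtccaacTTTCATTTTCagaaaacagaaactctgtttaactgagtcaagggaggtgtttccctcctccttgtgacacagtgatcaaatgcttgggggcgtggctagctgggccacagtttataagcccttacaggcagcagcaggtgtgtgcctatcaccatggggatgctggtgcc
Ifit3: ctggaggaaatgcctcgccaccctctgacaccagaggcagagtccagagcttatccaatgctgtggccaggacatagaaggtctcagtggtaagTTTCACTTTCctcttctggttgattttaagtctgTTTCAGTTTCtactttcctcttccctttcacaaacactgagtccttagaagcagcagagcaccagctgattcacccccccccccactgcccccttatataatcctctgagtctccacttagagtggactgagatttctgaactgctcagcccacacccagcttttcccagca
Gbp5: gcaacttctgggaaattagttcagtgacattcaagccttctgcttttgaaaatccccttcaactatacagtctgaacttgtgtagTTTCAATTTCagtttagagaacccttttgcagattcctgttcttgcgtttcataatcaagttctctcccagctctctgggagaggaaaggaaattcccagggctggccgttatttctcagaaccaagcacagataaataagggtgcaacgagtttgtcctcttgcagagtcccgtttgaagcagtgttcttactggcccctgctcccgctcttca
Cxcl10: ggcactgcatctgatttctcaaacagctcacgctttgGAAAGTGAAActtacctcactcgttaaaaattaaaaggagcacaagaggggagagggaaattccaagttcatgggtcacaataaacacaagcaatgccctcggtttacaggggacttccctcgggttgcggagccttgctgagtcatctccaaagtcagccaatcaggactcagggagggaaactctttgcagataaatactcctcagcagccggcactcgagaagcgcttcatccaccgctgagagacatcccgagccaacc

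Interferon-induced GTPases, which coat and disrupt the vacuoles of intracellular microbes, rose as a group: 9 of 12 measured rose and 0 fell (10.2% of all genes rose), with a median of 1.46. The guanylate-binding protein gene Gbp5, whose window is shown above, stood at 12.69, 11.63 and 11.77 at 2 h, against 10.44, 8.01 and 9.13 at 1 h. The replicates kept the same order of arrays at both times, with replicate 1 highest and replicate 2 lowest, and the groups did not overlap; the rise was 2.83 ± 0.37. Irgm2, an immunity-related GTPase, had 11.75, 9.83 and 10.24 at 2 h, against 8.56, 8.03 and 7.99 at 1 h. It rose by 2.41 ± 0.34, and its levels at 1 h were near or below the 0 h mean of 8.55. Ifi47 (2.12 ± 0.24) and Gbp2 (1.78 ± 0.17) also rose, while Gbp10, Gbp11 and Tgtp1 were below the floor on all 3 arrays at 1 h and at least 2 at 2 h and did not pass the test. Without replicate 1, 8 of the 12 rose.

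A list of secondary LPS response genes, which overlaps the interferon lists, had 25 rises and 0 falls among 30 measured (10.2% of all genes rose and 13% fell). This list too was chosen with earlier results of these data known, so its counts are no test of a secondary response. Its median was 1.82, and without replicate 1 it had 25 rises and 1 fall. Ccl5, a chemokine for T cells and monocytes, stood at 14.49, 14.18 and 14.41 at 2 h, against 12.04, 10.20 and 10.91 at 1 h. All 2 h arrays lay close to each other near the top of the scale, well above the scattered 1 h arrays, a rise of 3.32 ± 0.32 or 9.97-fold. Cxcl10, which draws T cells through Cxcr3, stood at 14.30, 13.57 and 13.53 at 2 h, against 12.25, 10.95 and 11.44 at 1 h and rose by 2.25 ± 0.22. Cxcl9 acts on the same receptor, and its arrays read 10.61, 7.33 and 7.70 at 2 h, against 6.64, 6.19 and 6.17 at 1 h. Replicate 1 was about 3 log2 units above the other 2 arrays at 2 h, while 2 of the 1 h arrays lay below the floor. The rise of 2.21 ± 0.44 (adjusted p = 0.00091) was 1.33 without replicate 1 (adjusted p = 1.18e-05), in a range of 1.18e-05 to 0.0337.

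Interleukins and other cytokines had 15 rises and 3 falls among 30 measured (10.2% of all genes rose and 13% fell). Edn1 encodes the vasoconstrictor endothelin, and its arrays read 10.64, 10.91 and 11.06 at 2 h, against 7.98, 7.24 and 8.05 at 1 h. Within each group the arrays lay within 1 log2 unit, and every 2 h array was far above every 1 h array, a rise of 3.11 ± 0.18 (adjusted p = 2.48e-09). Il27, a subunit of interleukin 27, rose by 2.67 ± 0.25; Il4i1, a secreted amino acid oxidase, by 2.45 ± 0.28; and Tnfsf15, the ligand of the death receptor Dr3, by 2.23 ± 0.26. At 1 h Il27 was above the floor on 2 of 3 arrays and Tnfsf15 on 1 of 3, so these rises may be understated. Il6, the acute phase cytokine, stood at 11.52, 12.22 and 12.16 at 2 h, against 11.47, 9.42 and 10.68 at 1 h. Replicate 1 hardly differed between the times and replicates 2 and 3 were higher at 2 h, and the groups were separated only narrowly. The change was 1.44 ± 0.37 (adjusted p = 0.00692), and without the 1 h array of replicate 2 the adjusted p was 0.0738, within a range of 4.89e-06 to 0.227 over all alternatives.

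Falls on the cytokine list were Osm, Vegfa and Il10. Oncostatin M (Osm) stood at 8.996, 9.68 and 10.16 at 2 h, against 12.21, 11.12 and 12.06 at 1 h, with no overlap between the groups and a change of -2.19 ± 0.31. Vegfa, an angiogenic growth factor, stood at 8.04, 8.37 and 8.39 at 2 h, against 10.95, 9.78 and 10.27 at 1 h. Its 3 arrays at 2 h lay together and its 1 h arrays were spread above them, with a change of -2.06 ± 0.34. Il10, the anti-inflammatory cytokine, read 5.96, 6.77 and 6.82 at 2 h, against 7.28, 7.46 and 7.85 at 1 h; replicate 1 was below the floor at 2 h. Its change was -1.01 ± 0.26 (adjusted p = 0.00662), and 0.0674 without the 2 h array of replicate 1, in a range of 7.9e-05 to 0.0998. Tnf, the classic primary cytokine, did not pass the test, with 13.93, 14.28 and 14.34 at 2 h, against 14.86, 13.99 and 14.65 at 1 h. The 2 groups overlapped near the top of the scale, and the change was -0.32 ± 0.20 (adjusted p = 0.277); without replicate 2 it was -0.62 (adjusted p = 0.0194), and without the 1 h array of replicate 2 it was -0.60 (adjusted p = 0.0334), in a range of 0.0194 to 0.98. Il1b, made as an inactive precursor, was also high at both times and not called, at 0.85 ± 0.44 (adjusted p = 0.182); in the fit of the 4 groups at 1 h and 2 h its adjusted p was 0.038, in a range to 0.602.

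Interferon beta itself differed between replicates. Ifnb1 stood at 11.52, 13.16 and 11.92 at 2 h, against 12.77, 10.50 and 10.49 at 1 h. In replicate 1 the level was higher at 1 h than at 2 h, and in replicates 2 and 3 it was higher at 2 h. The mean change was 0.95 ± 0.62 (adjusted p = 0.294), and without replicate 1 it was 2.05 (adjusted p = 0.000475), with a range of 0.000475 to 0.956 over all alternatives. Of the 43 antiviral genes, 42 were highest in replicate 1 among the 3 arrays at 2 h, and 35 at 1 h; over all 8201 genes, 37.8% were highest in replicate 1 at 2 h and 38.5% at 1 h. The median change of the antiviral list was 1.63 in replicate 1, 0.91 in replicate 2 and 0.94 in replicate 3. For the primary response list the medians were -1.08, -0.01 and -0.64. What sets replicate 1 apart was not tested.

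Interferon receptors and regulatory factors moved both ways, with 7 rises and 5 falls among 20 measured (10.2% of all genes rose and 13% fell). Stat2, which acts with Irf9 downstream of the interferon receptor, had 9.43, 7.72 and 8.02 at 2 h, against 7.03, 6.51 and 6.45 at 1 h. It was at or near the floor in replicates 2 and 3 at 1 h, and it rose by 1.73 ± 0.23. Irf7, which amplifies interferon production, stood at 9, 7.59 and 7.61 at 2 h, against 6.94, 6.53 and 6.36 at 1 h and rose by 1.45 ± 0.20 (adjusted p = 2.64e-05). Ifnar2, a chain of the interferon receptor, rose by 1.14 ± 0.15. Irf3, which is present before LPS, fell by 0.33, Batf3 fell by 0.67 and Irf2 fell by 0.42; after centring on housekeeping genes 0 of the 20 fell, and without the 1 h array of replicate 1, 2 or 3 or the 2 h array of replicate 2, 2 or 3 of the 20 fell. In the Jak, Stat and Socs family 4 rose and 3 fell among 20 (10.2% of all genes rose and 13% fell), and 1 fell without the 1 h or the 2 h array of replicate 1. Jak2, a receptor-bound tyrosine kinase, rose by 1.77 ± 0.14, and Socs1, its feedback inhibitor, was below the floor on all 3 arrays at 1 h and higher at 2 h by a factor of at least 2.26 (adjusted p = 1.74e-06).

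NF-kB genes rose more than they fell, with 14 rises and 2 falls among 23 measured and a median of 0.52 (10.2% of all genes rose and 13% fell). Nfkb2, the p100 subunit of the alternative pathway, had 9.79, 9.29 and 9.76 at 2 h, against 8.24, 7.68 and 8.14 at 1 h. The groups were separated by about 1 log2 unit at the closest, and the rise was 1.59 ± 0.17. Traf1, an adaptor of Tnf receptors, rose by 1.73 ± 0.17; Nfkbie, an inhibitor of NF-kB, by 1.37 ± 0.14; and Tank, a scaffold of the kinases Tbk1 and Ikbke, by 1.33 ± 0.12. The subunit genes Rel, Relb and Rela rose by 1.18, 1.20 and 0.64. Nfkbia, the rapid inhibitor, had 13.03, 13.35 and 13.30 at 2 h, against 13.39, 13.55 and 13.95 at 1 h. It was lower at 2 h in each replicate and fell by 0.40 ± 0.12 (adjusted p = 0.0182); this call was lost without the 1 h array of replicate 3 (adjusted p = 0.153), without the 2 h array of replicate 1 (0.102), without replicate pairing (0.0505) and after housekeeping centring (0.3), in a range of 0.0104 to 0.3.

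Among toll-like receptors and adaptors, 10 rose and 2 fell of 29 measured (10.2% of all genes rose and 13% fell). Peli1, a ubiquitin ligase of Irak signalling, stood at 12.39, 12.28 and 12.28 at 2 h, against 10.36, 9.18 and 9.68 at 1 h. The 2 h arrays lay close together and above all 1 h arrays, a rise of 2.58 ± 0.22. Tlr2, the receptor for bacterial lipopeptides, rose by 1.04 ± 0.16, and Clec4e, a receptor for mycobacterial glycolipid, by 1.48 ± 0.20. Tlr4, the LPS receptor, went the other way, with 8.51, 9.18 and 8.69 at 2 h, against 9.82, 9.92 and 9.86 at 1 h. Its groups did not overlap, and the change was -1.07 ± 0.19 (adjusted p = 0.000263).

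Surface molecules of activation and costimulation had 16 rises and 0 falls among 22 measured, with a median of 0.90 (10.2% of all genes rose and 13% fell). Cd40, through which T cells license macrophages, stood at 13.39, 12.58 and 13.02 at 2 h, against 10.92, 8.67 and 10.53 at 1 h. It was above every 1 h level on every 2 h array, a rise of 2.96 ± 0.33. Fpr2, a receptor for formylated bacterial peptides, had 10.42, 10.04 and 10.24 at 2 h, against 8.18, 7.18 and 7.75 at 1 h and rose by 2.53 ± 0.20. The early activation marker Cd69 rose by 1.86 ± 0.31 and the hyaluronan receptor Cd44 by 1.53 ± 0.14; Cd80 and Cd86, the ligands of Cd28, rose by 1.00 and 0.90. Antigen presentation genes had 7 rises and 0 falls among 25 (10.2% of all genes rose and 13% fell), the largest in the peptide transporter gene Tap1 (0.90 ± 0.17); 3 rose without the 2 h array of replicate 1, 4 without the 1 h array of replicate 2 and 3 without replicate pairing. The other large rises were Cav1, the caveolar coat protein gene (3.02 ± 0.27), and Fnbp1l, which links membrane curvature to actin (2.89 ± 0.26).

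The falls were led by immediate early transcription factors. Of the 22 AP-1, Egr and immediate early factors measured, 9 fell and 1 rose, where 13% of all genes fell. Egr1, a zinc finger factor induced within minutes of MAP kinase signalling, read 9.76, 11.74 and 10.51 at 2 h, against 14.51, 14.18 and 14.30 at 1 h. The 1 h arrays lay together near the top of the scale and the 2 h arrays were spread over about 2 log2 units beneath them. The change was -3.66 ± 0.34, or 12.6-fold lower (adjusted p = 2.44e-07). Fos, a component of AP-1, stood at 8.28, 9.78 and 8.92 at 2 h, against 12.26, 12.67 and 12.48 at 1 h. No 2 h array reached a 1 h array, and the change was -3.48 ± 0.51. Egr2 had 9.64, 11.86 and 11.44 at 2 h, against 13.71, 12.84 and 13.37 at 1 h and a change of -2.33 ± 0.47, with replicate 1 about 2 log2 units under the others at 2 h. Fosb and Junb fell by 1.57 and 0.91; Jun fell by 1.18, and without the 2 h array of replicate 1 its adjusted p was 0.0517 in a range of 0.00107 to 0.116. Myc was below the floor on all 3 arrays at 2 h, at least 1.46-fold lower than at 1 h (adjusted p = 0.00707); without the 1 h or the 2 h array of replicate 1 the adjusted p was 0.0621 or 0.0583, in a range of 0.00512 to 0.0888. Atf3, Maff and Srf had changes of 0.05 to 0.20 that did not pass the test.

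Primary response genes as a list had 17 falls and 3 rises among 36 measured (13% of all genes fell and 10.2% rose), with a median of -0.48. Without replicate 1, 15 fell and 6 rose with a median of -0.32; without the 2 h array of replicate 1, 10 fell. Phlda1, a death-associated protein gene, stood at 8.73, 11.21 and 11.15 at 2 h, against 12.73, 12.38 and 13 at 1 h. Its 1 h arrays were close together and all 2 h arrays were lower, with replicate 1 the lowest, and the change was -2.34 ± 0.41; without the 2 h array of replicate 1 it was -1.77. Ier3, an immediate early survival gene, fell by 1.92. The 3 members that rose were Rel, Icam1 and Il1a, by 1.18, 1.07 and 0.98; the rise of Il1a was lost without the 1 h array of replicate 2 (adjusted p = 0.283) or replicate 3 (0.112) and without the 2 h array of replicate 2 (0.152) or replicate 3 (0.108), in a range of 4.52e-05 to 0.433.

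Regulators of signalling and of cytokine mRNA decay included some of the largest falls. Zfp36 (tristetraprolin), which binds AU-rich elements and speeds the decay of Tnf mRNA, had 11.24, 12.08 and 11.83 at 2 h, against 14.41, 13.92 and 14.16 at 1 h. Every 2 h array lay well below every 1 h array, and the change was -2.45 ± 0.24 (adjusted p = 4.62e-07). Its relative Zfp36l1 stood at 9.40, 12.28 and 11.44 at 2 h, against 13.04, 13.14 and 12.96 at 1 h; the 2 h array of replicate 1 was the lowest by about 2 log2 units, and the change was -2.01 ± 0.43. Zc3h12a (regnase), a nuclease of cytokine mRNA, rose by 1.11 ± 0.21. Over the 13 decay regulators measured, 3 fell and 1 rose, where 13% of all genes fell and 10.2% rose. Dual specificity phosphatases, which switch off MAP kinases, had 3 falls and 2 rises among 13, again beside 13% and 10.2% of all genes. Dusp1 stood at 11.84, 12.99 and 12.57 at 2 h, against 14.72, 14.37 and 14.60 at 1 h; replicate 1 had the highest level at 1 h and the lowest at 2 h, and the change was -2.09 ± 0.39. Dusp8 fell by 1.64 and Dusp16 rose by 1.29 ± 0.15.

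The windows of Dusp1 and Zfp36 each hold an element of the factors that act at the start of a response, and they are shown for that reason. In Dusp1 (chr17:26508423-26508722, minus strand) capitals mark TGACGTCA, the cyclic AMP response element bound by Creb and its relatives. In Zfp36 (chr7:28379179-28379478, minus strand) they mark a CArG box, bound by Srf. The cyclic AMP element was in 3 of 41 windows of the 50 largest falls (7.32%) and 233 of 6245 of tested genes (3.73%), and the CArG box in 2 of 41 (4.88%) and 105 of 6245 (1.68%).
Dusp1: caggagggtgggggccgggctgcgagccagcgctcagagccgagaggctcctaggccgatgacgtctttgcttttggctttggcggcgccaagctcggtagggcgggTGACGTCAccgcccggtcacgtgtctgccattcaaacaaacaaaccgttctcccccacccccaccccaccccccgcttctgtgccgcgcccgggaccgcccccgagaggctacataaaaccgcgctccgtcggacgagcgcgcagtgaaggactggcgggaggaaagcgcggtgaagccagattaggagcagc
Zfp36: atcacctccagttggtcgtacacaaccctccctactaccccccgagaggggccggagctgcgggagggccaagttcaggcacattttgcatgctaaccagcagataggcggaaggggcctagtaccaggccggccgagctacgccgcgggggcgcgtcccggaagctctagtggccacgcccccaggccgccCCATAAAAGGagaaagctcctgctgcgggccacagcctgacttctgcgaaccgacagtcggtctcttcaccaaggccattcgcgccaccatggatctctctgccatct

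Kruppel-like factors split within the family, with 5 falls and 3 rises among 9 measured (13% of all genes fell and 10.2% rose). Klf4, which shapes macrophage polarisation, stood at 7.18, 8.53 and 8.17 at 2 h, against 9.74, 10.13 and 10.28 at 1 h. It was lower at 2 h in each replicate and fell by 2.09 ± 0.20 (adjusted p = 3.51e-07), while its 1 h mean of 10.05 was close to the 0 h mean of 10.09. Klf2, which restrains myeloid activation, fell by 1.14. Klf7 rose by 1.24 ± 0.19 and Klf3 by 1.06 ± 0.19. After centring on housekeeping genes, 2 of the 9 fell and 3 rose, and without the 2 h array of replicate 1, 3 fell.

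Macrophage lineage factors had 10 falls and 4 rises among 25 measured (13% of all genes fell and 10.2% rose). Without replicate 3, 6 fell, in a fit that called fewer genes in all, so this count cannot be set against 13%. Pparg, the lipid-sensing receptor of alveolar macrophages, stood at 9.03, 9.69 and 9.37 at 2 h, against 10.64, 10.36 and 10.24 at 1 h. It fell by 1.05 ± 0.15, with no overlap between the groups. Bhlhe40, a repressor in macrophages and T cells, fell by 1.07, and Tfec, a myeloid relative of Mitf, rose by 1.09 ± 0.20. Spi1, the master regulator of the lineage, had a change of -0.03 that did not pass the test. Fbxo32, a muscle atrophy ubiquitin ligase gene that Foxo factors control, stood at 6.42, 7.18 and 6.80 at 2 h, against 9.17, 9.50 and 8.81 at 1 h. It came close to the floor at 2 h, with a change of -2.36 ± 0.29.

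G protein-coupled receptors and their regulators had 9 falls and 5 rises among 23 measured, where 13% of all genes fell and 10.2% rose. Lpar6, a receptor for lysophosphatidic acid, stood at 7.02, 7.21 and 6.76 at 2 h, against 9.29, 9.32 and 9.15 at 1 h. Arrays within each group lay close together and the groups far apart, a change of -2.25 ± 0.17 (adjusted p = 4.5e-08). Cxcr4, the receptor that holds cells in the marrow, fell by 1.98, Gpr146 by 1.92 and the cannabinoid receptor Cnr2, above the floor on 1 of 3 arrays at 2 h, by 1.52. Arhgap25, a Rac inhibitor of phagocytes, had a change of -2.22 ± 0.24. Growth arrest and p53 target genes had 7 falls and 0 rises among 19, where 13% of all genes fell and 10.2% rose. Of the 19, 4 fell without the 2 h array of replicate 1, 4 without replicate pairing and 3 without replicate 3. Those fits also called fewer genes in all, so these counts cannot be set against the 13% of the main fit. Gadd45a, a stress-induced growth arrest gene, fell by 2.03, and the sestrin gene Sesn1 by 1.44. Cell cycle genes had 7 falls and 1 rise among 25 (13% of all genes fell and 10.2% rose); E2f2, above the floor on 2 of 3 arrays at 2 h, fell by 1.14, and the cyclin gene Ccnd2 rose by 1.42 ± 0.21. After housekeeping centring the cell cycle list had 2 falls, as it did without replicate pairing, and without the 2 h array of replicate 1 it had 3. Those refits also changed the calls over all genes, so their counts are not set against 13%.

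Metabolic and stress gene lists had more rises than falls. Of 27 oxidative stress and iron genes, 7 rose and 3 fell. Of 20 hypoxia and glycolysis genes 5 rose and 1 fell, and of 22 sterol genes 5 rose and 2 fell. Over all genes 10.2% rose and 13% fell, so the share of falls in each list was no larger than over all genes. Sterol gene rises were 1 without the 1 h array of replicate 2 or 3 or the 2 h array of replicate 3, and 3 without the 2 h array of replicate 1; oxidative stress falls were 1 without the 1 h array of replicate 2. Slc7a11, the cystine importer, stood at 11.93, 11.69 and 11.79 at 2 h, against 10.40, 8.93 and 9.91 at 1 h and rose by 2.06 ± 0.27, and the arginine transporter Slc7a2 rose by 1.58 ± 0.14. Hif1a, the oxygen-regulated factor, rose by 1.22 ± 0.12 and the sugar transporter gene Slc2a6 by 1.35 ± 0.18. Lcn2, which withholds iron from bacteria, was below the floor at 1 h and at least 2.07-fold higher at 2 h, and the complement gene Cfb at least 1.93-fold higher. Abcg1, a cholesterol exporter, fell by 0.97, and Ch25h, which makes the antiviral lipid 25-hydroxycholesterol, rose by 1.87 ± 0.52; the rise of Ch25h had an adjusted p of 0.0785 without the 1 h array of replicate 2 and 0.0617 without that of replicate 3, in a range of 5.77e-07 to 0.218. Nos2, the inducible nitric oxide synthase, had 1 of its 6 arrays above the floor, and Ptgs2, above the floor on 2 of 3 arrays at 2 h, was not called at 0.37 ± 0.26 (adjusted p = 0.338), or at 0.80 without replicate 1 (adjusted p = 0.0197), in a range to 0.835.

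Several large gene groups hardly moved. Replication-dependent histone genes had 0 calls among 28, and housekeeping genes 0 among 9. The histone genes H4c3, H3c7, H2ac6 and H2aw were below the floor on all arrays at 2 h and 1 h, so a change in them was not measurable. Respiratory chain genes had 1 call among 35 and cytosolic ribosomal protein genes 3 among 36, where 23.2% of all genes were called. Each single-array omission left 0 or 1 ribosomal call, in fits that called fewer genes in all. The medians of the respiratory and ribosomal lists were -0.12 and -0.13, which became 0.05 and 0.03 after housekeeping centring. Actb had a change of 0.11 ± 0.08 (adjusted p = 0.367).

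**Figure D3:**
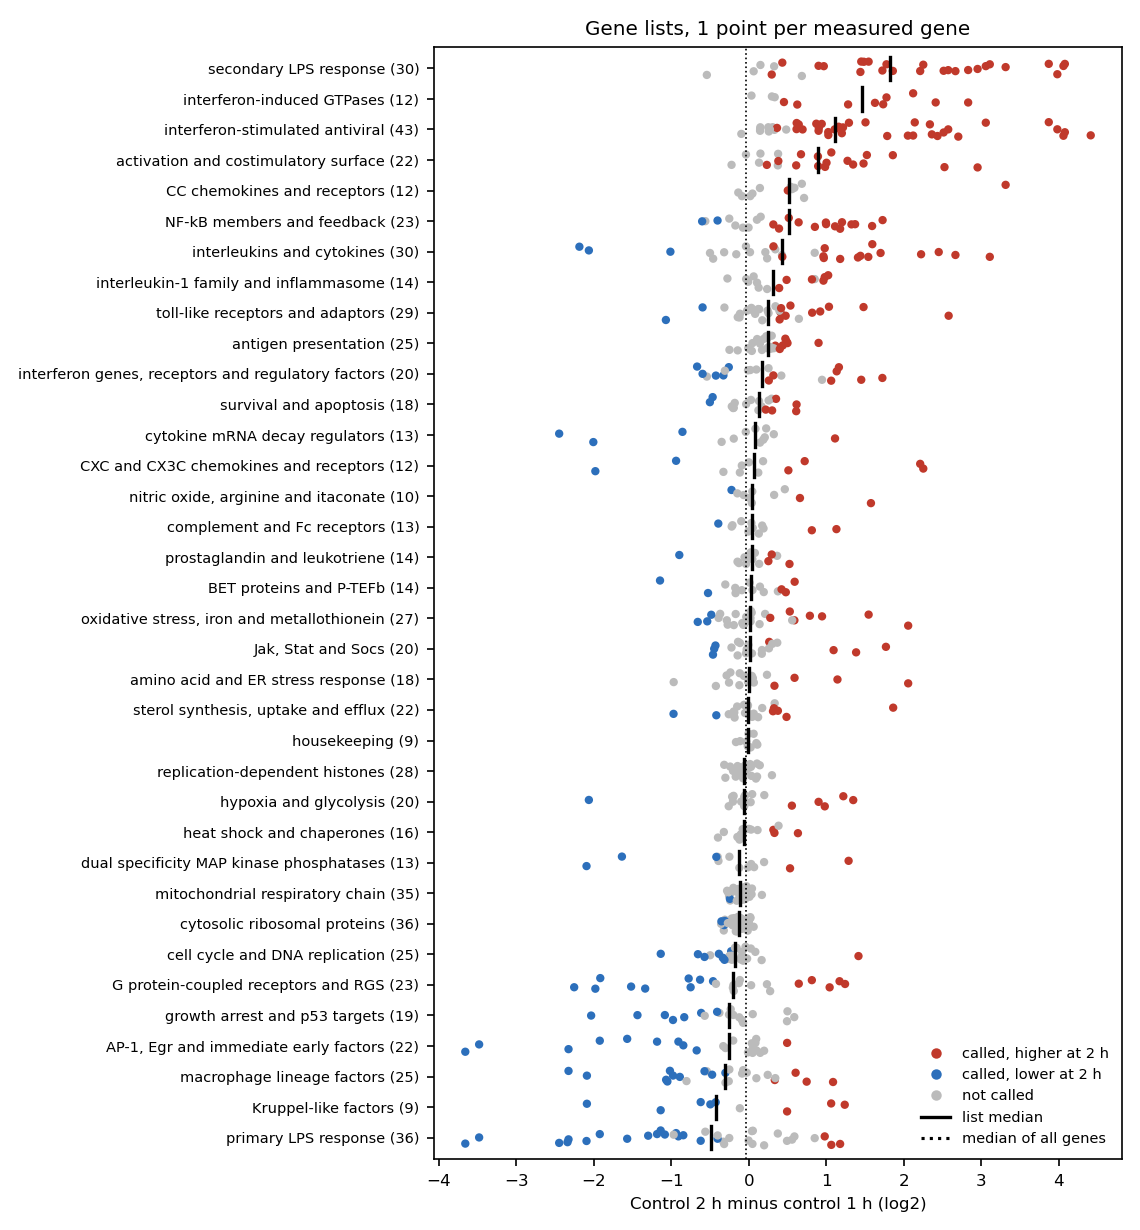
Each row is a gene list with the number of measured genes in brackets, each point a gene at its change of control 2 h minus control 1 h (log2), red for called rises, blue for called falls and grey for genes not called; black bars are list medians and the dotted line the median of all genes (-0.04). Secondary response (1.82), GTPase (1.46) and antiviral (1.11) lists lie furthest right and the primary response list (-0.48) furthest left.

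The same genes were followed from 0 h to 4 h in control cells; the change from 0 h to 1 h shares the 1 h arrays with the comparison above, and the change from 2 h to 4 h shares the 2 h arrays, so the values are set side by side only. Rsad2 had group means of 9.02, 10.57, 14.66 and 14.95 at 0, 1, 2 and 4 h. By these means most of its climb fell between 1 h and 2 h, and the change from 0 h to 1 h did not pass the test (adjusted p = 0.129). Replicate 1 read 9.92, 12.56 and 15.07 at 0, 1 and 2 h, with a similar gain in each hour. Replicates 2 and 3 gained more in the second hour. Cmpk2 means were 7.52, 7.78, 12.19 and 14.16 at 0, 1, 2 and 4 h, flat over the first hour. Ccl5, by contrast, had 7.23, 11.05, 14.36 and 14.85 at 0, 1, 2 and 4 h, with its larger gain before 1 h. Cxcl10 had 6.06, 11.54, 13.80 and 14.83 at 0, 1, 2 and 4 h and gained most in the first hour as well. Egr1 had 8.99, 14.33, 10.67 and 8.11 at 0, 1, 2 and 4 h and was highest at 1 h. Zfp36 had 11.35, 14.17, 11.72 and 12.05 at 0, 1, 2 and 4 h, and its 2 h mean was close to its 0 h mean. Dusp1 had 12.42, 14.56, 12.47 and 10.99 at 0, 1, 2 and 4 h and ended below its start. Klf4 had 10.09, 10.05, 7.96 and 8.04 at 0, 1, 2 and 4 h, and Fbxo32 8.98, 9.16, 6.80 and 6.31 at 0, 1, 2 and 4 h; neither change from 0 h to 1 h passed the test (adjusted p = 0.948 and 0.805). Of 8201 genes, 518 (6.32%) were called at 1 h against 0 h, 275 higher (3.35%) and 243 lower (2.96%).

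**Figure D4:**
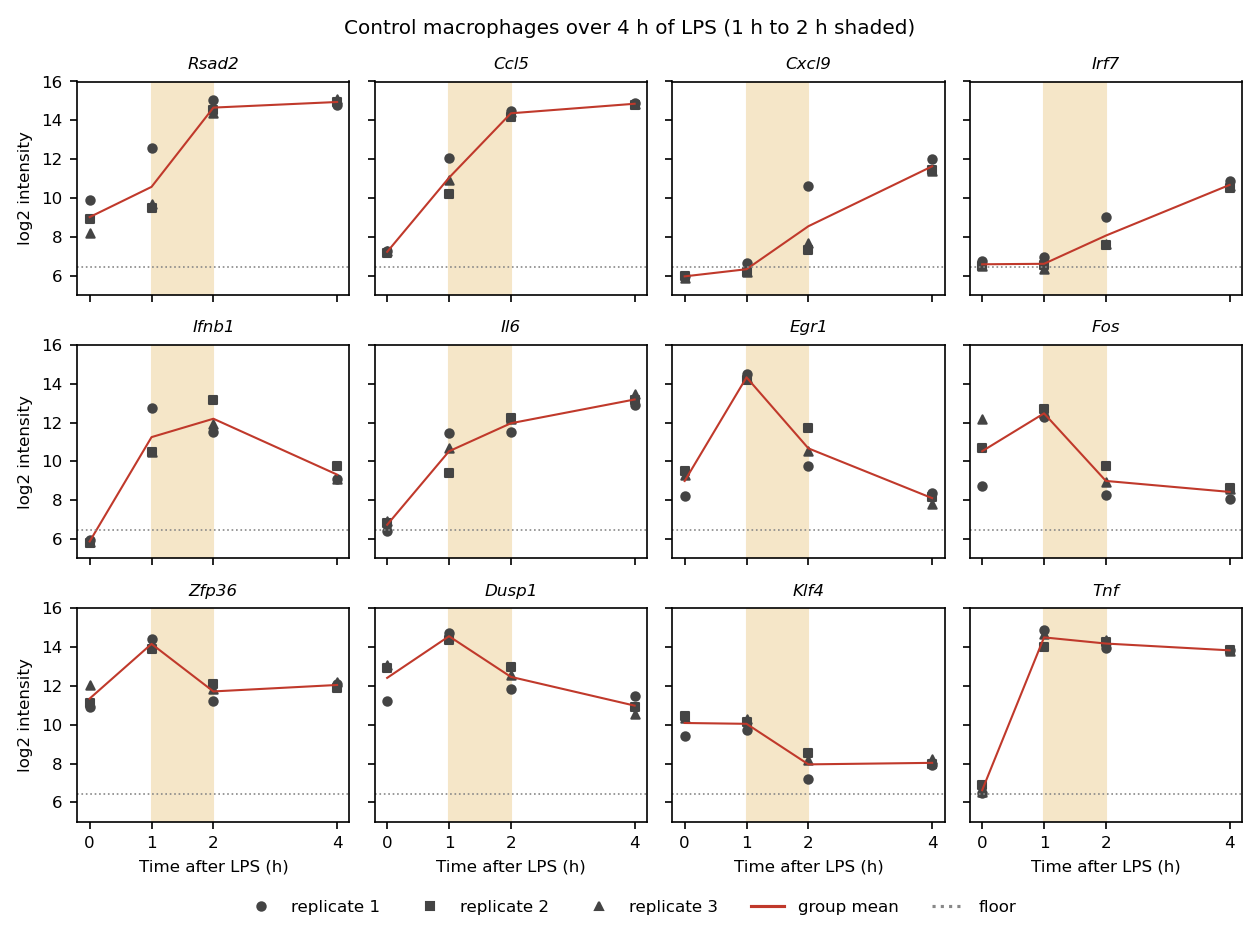
Each panel shows 1 gene in control cells: the horizontal axis is hours after LPS (0, 1, 2 and 4), the vertical axis log2 intensity, points are the 3 arrays by replicate number, the red line joins group means, the dotted line is the floor (6.46) and the shaded band is the interval from 1 h to 2 h. Rsad2 climbs within the band (4.08), Egr1 drops within it (-3.66) and the 3 arrays of Ifnb1 cross.

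Some genes crossed the floor. On all 3 arrays 55 of 8201 genes were above it at 2 h and below it at 1 h, and 35 of 8201 the reverse. Not all of these passed limma's test. Iqsec2 had means of 6.51 at 2 h and 6.39 at 1 h (adjusted p = 0.414), and Nf1 6.40 and 6.59 (adjusted p = 0.215). A crossing can therefore be a small difference around the floor. Tpbg, a trophoblast surface glycoprotein gene, had 8.26, 7.94 and 8.401 at 2 h, against 6.31, 6.23 and 6.27 at 1 h. It was below the floor throughout the 1 h group and at least 3.35-fold higher at 2 h. Il33, an alarmin of the interleukin-1 family, was at least 2.66-fold higher, Il15ra, which presents interleukin 15, at least 2.64-fold, and Gata6, a factor of peritoneal macrophages, at least 2.05-fold. In the other direction Ifrd1 was at least 1.73-fold and Fhdc1 at least 1.74-fold lower at 2 h. The 6 genes given with a fold, and Iqsec2 and Nf1, were chosen after their values were seen.

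The step from 1 h to 2 h was then compared between inhibitor-treated and control cells, which share no arrays. Of 8201 genes, 109 (1.33%) differed in the size of the step by limma's test of the difference, inhibitor minus control: 33 had a higher step with inhibitor (0.402%) and 76 a lower one (0.927%). Within inhibitor-treated cells 1621 genes were called at 2 h against 1 h (19.8%), 705 higher (8.6%) and 916 lower (11.2%). Edn1 had 6.77, 6.52 and 6.79 at 2 h, against 6.05, 6.19 and 6.27 at 1 h in inhibitor-treated cells. In control cells it read 10.64, 10.91 and 11.06 at 2 h, against 7.98, 7.24 and 8.05 at 1 h. The inhibitor arrays were below the floor on all 3 at 1 h and just above it at 2 h. On the deposited values the step differed by -2.59 ± 0.26 (adjusted p = 3.04e-05), a size that is not exact because the 1 h level with inhibitor is known only to lie below the floor. Fpr2 read 6.86, 7.12 and 6.82 at 2 h, against 6.69, 6.85 and 6.50 at 1 h with inhibitor. In control cells it read 10.42, 10.04 and 10.24 at 2 h, against 8.18, 7.18 and 7.75 at 1 h. Its step differed by -2.28 ± 0.28 (adjusted p = 0.000242). Ifi47 steps differed by -2.09 ± 0.34 (adjusted p = 0.00353), with a step of 0.03 with inhibitor and 2.12 in control cells. Dyrk3, a kinase that dissolves stress granules, was above the floor on 2 of 3 control arrays at 2 h; it fell in control cells by 1.01 and had a step of 0.34 with inhibitor, a difference of 1.35 ± 0.20 (adjusted p = 0.0018). Jak2 had a step of 1.77 in both treatments. The count of 109 was 15 without replicate pairing, 3 without replicate 2 or without replicate 3, and 23 after housekeeping centring. Leaving out 1 array gave 30 (control 1 h replicate 2), 35 (control 1 h replicate 3), 28 (control 2 h replicate 1), 51 (inhibitor 1 h replicate 2), 27 (inhibitor 1 h replicate 3) and 29 (inhibitor 2 h replicate 3). Edn1, Fpr2, Ifi47 and Dyrk3 kept their calls in each single-array omission. Without replicate 3 the adjusted p was 0.139 for Fpr2, 0.223 for Ifi47 and 0.254 for Dyrk3, the highest over their alternatives; for Ifi47 it was also 0.118 without replicate 2 and 0.0957 without pairing.

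**Figure D5:**
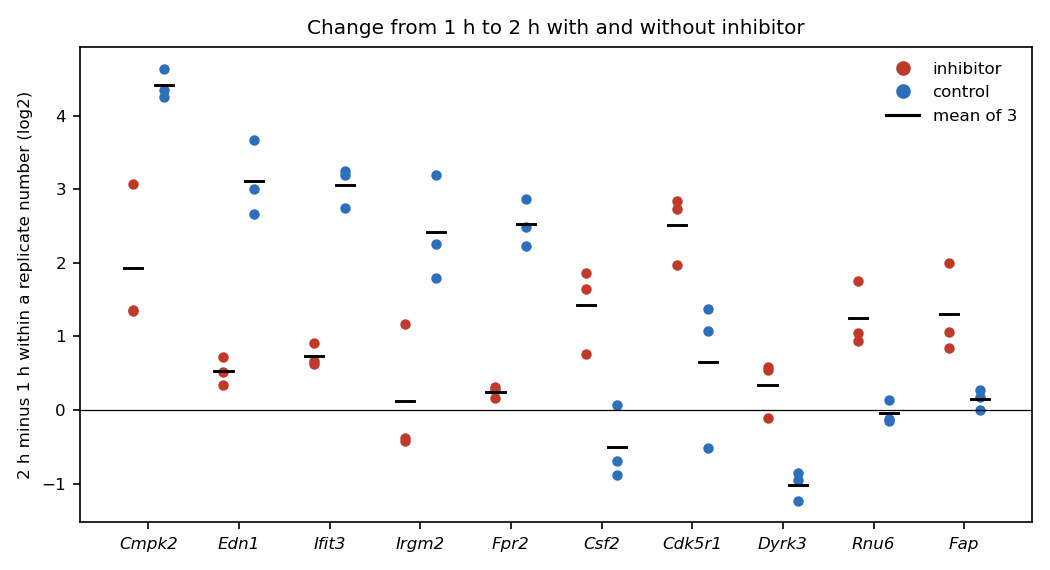
For the 5 largest called differences each way, points are the 3 changes of 2 h minus 1 h within a replicate number (log2), red for inhibitor-treated cells (left of each pair) and blue for control cells, with black bars at the means. Edn1 with inhibitor and Fap in control cells include groups wholly below the floor, so their points show deposited values and not measured steps. Fpr2 has a mean step of 0.25 with inhibitor and 2.53 in control cells, and Csf2 one of 1.42 with inhibitor and -0.50 in control cells.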

How the data were processed

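Per the labels, RNA of 24 cultures was amplified, biotin-labelled and read on Illumina bead arrays. The authors deposited log2 values for 25697 probes, whose ranked values differed by at most 0.004 between arrays at 99% of ranks, as quantile normalization gives; the log2 scale was inferred from their range of 5.35 to 15.17. Per the submitters' processing notes limma was used; no other step is named in the labels or headers. The 72 value columns of a non-normalized table were not used.

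Probes had to exceed the 99th percentile of 1303 olfactory and vomeronasal receptor probes (6.46) on all 3 arrays of a group, which left 10887; the brightest probe of a gene was kept, giving 8201 genes, 618 without a symbol. Here limma 3.58.1 in R 4.3.3 was fitted to all 24 arrays with 8 group means and a replicate term (14 residual degrees of freedom), with Benjamini-Hochberg adjustment within each comparison and calls under 0.05. The replicate term was used because the comparison is defined by pairs: deviations of same-numbered 1 h and 2 h arrays correlated at 0.554, 0.441 and 0.513. Where all 3 control arrays of 1 time lay under the floor, the change between 2 h and 1 h is given as "at least N-fold"; where only some did, their number is given or the arrays are printed. Differences between treatments were fitted to the deposited values, and groups under the floor are named beside them. The number of arrays limits precision, and p-values measure the spread between these cultures. On simulated data for the 1 h to 2 h comparison over 8201 genes, 82.2% of changes of 0.5, 98.9% of 1 and 99.9% of 2 log2 units were recovered, with 4.37% false calls. The simulation had the form of the fitted model, with an additive replicate term and independent normal noise. Its rates therefore hold only under that form, on which the p-values rest as well. The data depart from it. In replicate 1 the deviations of control and inhibitor arrays of the same time correlated at 0.844 (1 h) and 0.785 (2 h). Those of its 1 h and 2 h control arrays correlated at 0.554. Arrays of 1 replicate and time thus share more than the replicate term holds, and the effect on the false call rate was not tested.

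Genes named by rule were the 12 largest rises and falls with separated arrays and up to 4 largest calls per list. The rule also took a fixed panel, called or not, and the 5 largest differences by treatment each way. All other genes, given with or without an error, are further members chosen after their values were seen. Members and lists were chosen with earlier results of these data known. Alternatives covered pairing, groups fitted, centring, filter, probe choice and omitted arrays. Promoters came from RefSeq.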

Additional observations from a re-analysis of the deposited data

Results flagged for a closer look

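The step from 1 h to 2 h differed between inhibitor-treated and control cells for 109 genes by limma's test of the difference itself. Among the named genes with a lower step under inhibitor, the difference was -2.59 ± 0.26 for Edn1, -2.28 ± 0.28 for Fpr2 and -2.09 ± 0.34 for Ifi47, and these calls held without any 1 array; the size for Edn1 is not exact, since its 3 inhibitor arrays at 1 h lie below the floor. Cmpk2 differed by -2.49 ± 0.59 (adjusted p = 0.0404, in a range of 1.58e-06 to 0.497 over the alternatives). The inhibitor arrays of Cmpk2 read 11.55, 8.62 and 8.38 at 2 h, against 8.48, 7.28 and 7.02 at 1 h, so that replicate 1 stood well above the other 2 at 2 h. Ifit3 differed by -2.33 ± 0.49 (adjusted p = 0.0236, range 8.94e-05 to 0.368), Irgm2 by -2.29 ± 0.48 (adjusted p = 0.0238, range 1.52e-05 to 0.418) and Tnfsf15 by -1.76 ± 0.37 (adjusted p = 0.0236, range 7.34e-06 to 0.408), with Tnfsf15 below the floor on all 3 inhibitor arrays at 1 h, so that its size is not exact either. The arginine transporter gene Slc7a2 differed by -0.79 ± 0.19 (adjusted p = 0.0429, range 0.00299 to 0.568) and the death receptor gene Fas by -0.58 ± 0.14 (adjusted p = 0.0396, range 0.0185 to 0.449).

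Higher steps under inhibitor were called for Csf2, the growth factor GM-CSF, at 1.92 ± 0.38 (adjusted p = 0.0186, range 0.0106 to 0.239). Its arrays read 8.09, 8.72 and 9.35 at 2 h, against 7.32, 6.86 and 7.71 at 1 h with inhibitor, and 6.77, 7.64 and 8.30 at 2 h, against 7.64, 7.57 and 8.99 at 1 h in control cells. Cdk5r1, an activator of the kinase Cdk5, differed by 1.86 ± 0.37 (adjusted p = 0.018, range 0.000505 to 0.322). Dyrk3 differed by 1.35 ± 0.20, and Rnu6, a spliceosomal RNA gene, by 1.29 ± 0.32 (adjusted p = 0.0442, range 0.008 to 0.382). Fap has a fitted difference of 1.15 ± 0.25 (adjusted p = 0.0264, range 0.00666 to 0.401), but every control array at 2 h and 1 h and every inhibitor array at 1 h lay below the floor, so its control step was not measured and this value is no difference of measured steps. Of the 14 named calls, 10 were lost without some 1 array and 13 without some replicate number.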

How the results depend on the processing

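The 1899 calls of 2 h against 1 h became 1081 without the replicate block, 935 to 1472 without a replicate number, and 1213 to 1816 without 1 array, the lowest without the 2 h array of replicate 1. The 109 differences between treatments became 15 without the block, 229 with only the 4 groups at 1 h and 2 h, 23 after housekeeping centring, 68 with genes above the floor on all 24 arrays, and 3 to 127 with a replicate or array left out. With genes above the floor on all 24 arrays, 12 secondary response genes rose and 5 receptor genes fell, since genes dim at any time leave the lists. Primary response falls ranged between 10 (without replicate 3 or the 2 h array of replicate 1) and 20 (without replicate 2); lineage factor falls were 6 without replicate 3; p53 target falls were 4 without the block, 4 without the 2 h array of replicate 1 and between 3 (without replicate 3) and 9 (without replicate 1). The cause of these shifts was not tested. Rnu6, which was not called between 2 h and 1 h, changed sign to 0.12 after housekeeping centring, 0.026 after loess, and 0.009, 0.004 and 0.095 without replicate 3, the 1 h array of replicate 2 and the 2 h array of replicate 3 (lowest -0.179 without the 2 h array of replicate 1); with arrays left out, Fap, below the floor in control cells, lay between -0.005 without the 2 h array of replicate 2, a changed sign, and 0.296 without that of replicate 1. Of 150 named calls between 2 h and 1 h, 29 were lost without some 1 array, 48 without some replicate number, 25 without the block and 16 after housekeeping centring. Levels near the floor of 6.46 or the top of the scale limit what can be measured.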

Other observations

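Genes of the circadian clock were looked at after the large fall of Per1 had been seen, so the list was chosen after its values were known. Of 10 measured, 4 fell and 1 rose from 1 h to 2 h, where 13% of all genes fell. Per1, a repressor of the clock that also responds quickly to signalling, stood at 6.30, 6.42 and 6.57 at 2 h, against 8.12, 8.65 and 8.76 at 1 h, and it fell by 2.08 ± 0.19, with 2 of the 3 arrays at 2 h below the floor. Nr1d1, a nuclear receptor of the clock, read 6.27, 6.84 and 6.50 at 2 h, against 7.06, 7.995 and 7.72 at 1 h. Its groups did not overlap, and it fell by 1.06 ± 0.15 (adjusted p = 4.03e-05). Dbp, an output factor of the clock, fell by 1.01 ± 0.14 (adjusted p = 2.83e-05). Per2 fell by 0.70 ± 0.19 (adjusted p = 0.00876); without the 1 h array of replicate 3 or the 2 h array of replicate 1 the adjusted p was 0.0511 or 0.0926, in a range of 0.000855 to 0.0926. Clock rose by 0.34 ± 0.09 (adjusted p = 0.0122), and 0.0929 without the 1 h array of replicate 2, in a range of 0.00413 to 0.105. The labels give no time of day of harvest.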
